A study of Mus musculus with 23 samples.

Results

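The 2 control arms of an RNA-seq experiment in mouse embryonic stem cells (ESCs) were compared with each other: wild-type cells given 4-hydroxytamoxifen (4OHT) and engineered cells given only its carrier, ethanol (EtOH). Both arms keep an intact Zbtb11, the zinc-finger factor that the study deletes, and neither is a knockout. The 4OHT control was Zbtb11 WT/WT Rosa26 WT, E14 cells without loxP sites or Cre, exposed to 250 nM 4OHT for 48 h. The EtOH control was Zbtb11 lox/lox Rosa26 ERt2-Cre, E14 cells in which exon 3 of both Zbtb11 alleles is flanked by loxP sites and the ERt2-Cre transgene sits in Rosa26, exposed to EtOH for 48 h. The engineered line came from single-cell colonies isolated after CRISPR/Cas9 editing, so it stands for 1 clone. Line and treatment therefore differ together in this comparison and cannot be told apart by it. The third arm, Zbtb11 KO, shares its line with the EtOH control and its 4OHT exposure with the 4OHT control, and its values are given beside the others. These 6 control libraries, 3 per arm with replicate numbers 1 to 3, are part of a series of 23 samples, 9 of them RNA-seq.

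Of 14346 genes above 1 CPM (reads of the gene per 1000000 reads on genes) in at least 3 libraries, 12797 were kept for the comparison. The other 1549 lie on chromosomes X, Y, 8 and M or on chromosome 6 from Trnt1 (chr6:106719114-106732468, mm9) to the end, regions set aside so that gene programmes could be read apart from differences of whole regions. The control libraries held 14301457 to 23876604 reads on genes, with the lowest total in replicate 1 of the 4OHT control. The p-values measure the spread between these cultures of 1 line per arm, not between independent lines.

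The cells compared are mouse ESCs, which the paper grew in medium with foetal bovine serum and LIF. ESCs of the naive type renew themselves through Pou5f1, Sox2 and Nanog with support from LIF, BMP and low FGF-ERK signalling. 4OHT is an estrogen receptor ligand, and ERt2-Cre carries a mutated estrogen receptor ligand-binding domain that keeps Cre inactive until the ligand binds. ESC lines of one origin are known to drift in culture in chromosome content and in the methylation of imprinted genes, which are expressed from only the maternal or the paternal chromosome.

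Most genes of each set-aside autosomal region differed in the same direction. On chromosome 8 the median log2 fold change (4OHT control minus EtOH control) was 0.26 over 758 genes, and 85.2% of them were higher in the 4OHT control. On this stretch of chromosome 6 it was -0.56 over 266 genes, and 93.6% were lower. The 6 measured Y-linked genes had 1.13 to 99.0 CPM in the 4OHT control and at most 0.0521 CPM in the EtOH control and 0.0485 CPM in the KO. Among these set-aside genes were Nanog (log2 fold change -0.36 ± 0.06, adjusted p = 5.1e-05, 0.11 without a replicate block) and Dppa3 (-1.55 ± 0.08, adjusted p = 7.3e-12), both on that stretch. Over the kept chromosomes the medians ranged only from -0.03 to 0.01, and over 355 windows of 5 Mb with at least 10 genes from -0.21 to 0.20.

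**Figure D1:**
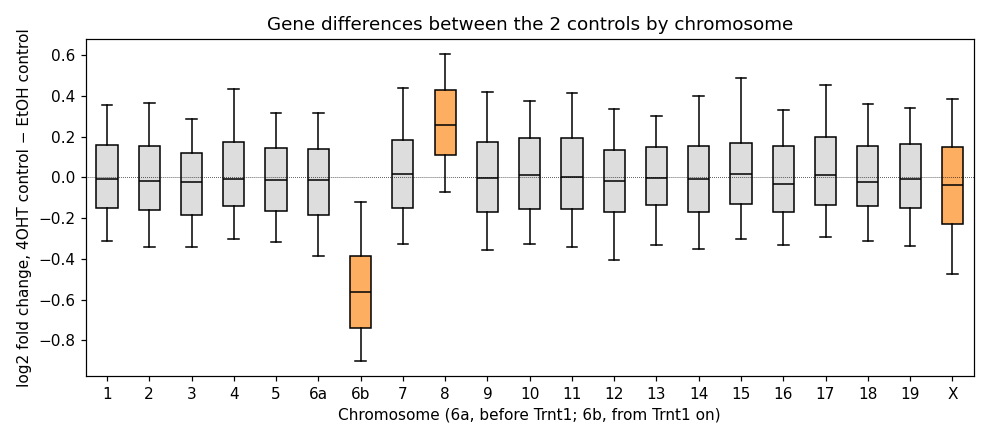
Log2 fold change of each tested gene (4OHT control minus EtOH control, y axis) by chromosome (x axis), with chromosome 6 split at Trnt1 (6a before it, 6b from it on). Boxes hold the quartiles with the median as a line, whiskers reach the 10th and 90th percentiles, and orange boxes were set aside: chromosome 8 sits above 0 (median 0.26) and 6b below it (median -0.56), while the kept chromosomes lie within -0.03 to 0.01.

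Outside these regions the 2 controls still differed in many genes, most of them by small amounts. By edgeR's quasi-likelihood test with replicate number as a block, 3993 genes passed an adjusted p under 0.05, which is 31.2% of those tested: 1964 were higher in the 4OHT control (15.3%) and 2029 lower (15.9%). The median size of the difference over all kept genes was 0.16 on the log2 scale. Tested for a change larger than 1.5-fold, 111 genes were higher (0.867%) and 82 lower (0.641%). Without the replicate block the counts were 212 for higher and 178 for lower genes, and 15 and 10 past 1.5-fold. Without replicate 2 they were 1011 and 1018, and 63 and 55 past 1.5-fold.

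Replicate 1 deviated from replicates 2 and 3 in the same way in both arms, which the block takes into account. Pairing by number was less clear between replicates 2 and 3. Deviations of EtOH control replicate 2 from the arm mean correlated at 0.43 with 4OHT control replicate 2 and at 0.53 with replicate 3. Gbx2, a LIF- and FGF-responsive homeobox gene, had 17.7, 47.0 and 55.3 CPM in EtOH control replicates 1 to 3 and 8.58, 25.6 and 32.8 CPM in those of the 4OHT control. Replicate 1 was the lowest in both arms, the arms overlapped, and within each pair the 4OHT control was lower (log2 fold change -0.86 ± 0.07, adjusted p = 1.6e-08 with the block and 0.52 without). Piwil4, a nuclear PIWI protein of the piRNA pathway, varied little within an arm, with 33.8, 32.4 and 32.7 CPM in the EtOH control and 11.8, 12.4 and 11.6 CPM in the 4OHT control. Its arms stood apart, and it passed in both fits (-1.46 ± 0.07, adjusted p = 1.3e-11 with the block and 5.3e-05 without). Of the kept genes given here as called, those that passed with the block and not without it were, among the higher ones, Aass, Atf3, Dmbx1, Dppa5a, Etv5, Fgf4, Fos, Greb1, H2-Q6, H2-Q7, Igfbp4, Jun, Klf4, Mael, Mlph, Mvk, Notum, Oas1a, Otx2, Pdgfrb, Pfkl, Pou5f1, Prdm14, Rhob, Ror2, Senp7, Sesn1, Stra8, Thy1 and Twist1. Among the lower ones they were Asns, C1qtnf6, Ccng1, Ddx58, Dll1, Dll3, Dll4, Dnmt3l, Etv4, Gbx2, Gstp1, Irf9, Meg3, Mirg, Myc, Myl9, Nr5a2, Pcnp, Rbpj, Rian, Ror1, Rtl1, Sesn2, Sgce, Soat1, Sparc, Spred1, Spry4, Tapbp, Tex14, Utf1, Vim and Wnt7b.

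**Figure D2:**
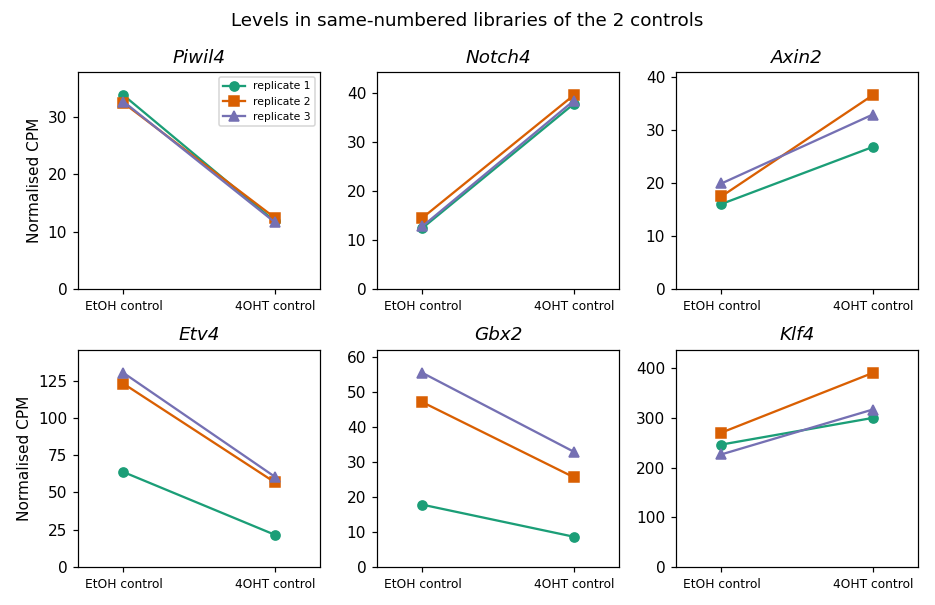
Normalised CPM (y axis, from 0) in the EtOH and 4OHT control (x axis) for 6 genes, with a line joining libraries of the same replicate number. Piwil4 and Notch4 show almost no spread within an arm, whereas Etv4 and Gbx2 have replicate 1 far below replicates 2 and 3 in both arms and fall within every pair.

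The Zbtb11 KO libraries, which share the line of the EtOH control, lay nearer to it than to the 4OHT control in the median of the genes that differed most. Over the 111 genes more than 1.5-fold higher the median log2 fold change was 1.21 in the 4OHT control and 0.01 in the KO, both against the EtOH control. Over the 82 lower genes the medians were -1.29 and -0.01. Regardless of sign, the median KO difference was 0.13 over the higher and 0.10 over the lower genes, against 0.07 over all kept genes. By the same test 288 kept genes (2.25%) differed between KO and EtOH control and 4175 (32.6%) between 4OHT control and KO. These comparisons share libraries, so their values are given side by side and no relation between them was tested.

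The gene with the largest decrease was Esr1 (chr10:5340927-5734948, mm9), which encodes estrogen receptor alpha. It had 3.44, 3.55 and 3.93 CPM in the EtOH control, 2.68, 3.01 and 3.18 CPM in the KO and 0.137, 0.0452 and 0.0444 CPM in the 4OHT control. All 6 libraries of the engineered line were thus far above all 3 of the wild-type line, where it rested on 4 reads in all against 234 in the EtOH control. The ratio of EtOH to 4OHT control was 54.0 (95% interval from counting error 20.8 to 199.8). Only libraries of the engineered line were over 1 CPM, so Esr1 passed the low-count filter through that line alone. The ERt2-Cre transgene holds part of an estrogen receptor coding sequence, and whether these reads came from it or from the endogenous gene was not tested.

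Acta2, Col1a2, Myl9 and Tagln, genes of smooth muscle and mesenchymal cells, had lower levels, which some other genes of such cells shared and some did not. Acta2, smooth muscle actin (chr19:34315580-34329826), had 7.46, 7.87 and 18.9 CPM in the EtOH control and 0.618, 0.813 and 1.55 CPM in the 4OHT control (-3.48 ± 0.16, adjusted p = 2.8e-12). Col1a2, a fibrillar collagen chain, fell from 3.23, 3.04 and 3.28 CPM to 1.03, 0.722 and 0.666 CPM (-2.02 ± 0.24, adjusted p = 1.8e-06), and neither gene's arms overlapped. Myl9, a myosin regulatory light chain, had 5.11, 11.2 and 16.0 CPM against 2.20, 3.84 and 4.66 CPM (-1.58 ± 0.13, adjusted p = 1.3e-08, 0.11 without the block). Tagln, an actin-binding protein of smooth muscle, was lower too (-1.14 ± 0.18, adjusted p = 8.2e-05). Over a list of contractile actins and myosins drawn up after the values were seen, 27 members were tested, of which 2 had higher and 10 lower levels in the 4OHT control (2 and 3 without the replicate block). Its median was -0.18, beside -0.01 over all kept genes. The counts of this and every later list are to be read beside the shares over all kept genes, 15.3% higher and 15.9% lower. The calponin gene Cnn2 (-0.71) and the vimentin gene Vim (-0.55) were also called lower, Vim not without the block. Of other smooth muscle genes, Cnn1 (-0.02), Myh11 (0.28), Mylk (0.33) and Synpo2 (0.46) were not called. Of other mesenchymal genes, Thy1 (0.61), Twist1 (0.58) and Pdgfrb (0.36) were called higher, and none of these 3 passed without the block. Twist1 and Pdgfrb each kept the call in 1 of the 3 fits with a replicate left out.

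Other genes among the 15 largest decreases have roles in detoxification, secretion and neurons. Cyp1b1, a cytochrome P450 that oxidises steroids, had 2.45, 2.61 and 4.02 CPM in the EtOH control and 0.686, 0.452 and 0.888 CPM in the 4OHT control (-2.19 ± 0.24, adjusted p = 6.7e-07). Insm1, a zinc-finger factor of neuroendocrine and neuronal precursors, fell from 12.3, 13.5 and 19.3 CPM to 3.02, 3.66 and 5.06 CPM (-1.94 ± 0.11, adjusted p = 4.9e-11). Msln, a cell-surface glycoprotein of mesothelium, was at -1.93 on the log2 scale, the secreted C1q and TNF relative C1qtnf6 at -1.73, and the cadherin gene Cdh10 at -1.55. The sodium channel gene Scn1a (-2.06), the septin gene Sept14 (-2.31), the interferon-induced membrane protein gene Ifitm7 (-1.66) and the co-chaperone gene Dnajc5g (-1.55) were at or under 3 CPM in every control library. Scn1a, Sept14 and Ifitm7, like Asz1 and Dll4, were over 1 CPM only in libraries of the engineered line, through which the low-count filter kept them. The exons of Ifitm7 and Dll4 overlap those of a gene on the other strand, and the strand setting of the counting is not given in the sources used here.

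The largest increases included 2 myosin heavy chain genes. Myh9 (chr15:77591017-77672605), the heavy chain of non-muscle myosin IIA, had 58.8, 50.8 and 50.4 CPM in the EtOH control, 57.6, 57.4 and 57.4 CPM in the KO and 301, 225 and 213 CPM in the 4OHT control (2.20 ± 0.07, adjusted p = 7.9e-15). Each wild-type library exceeded every library of the engineered line. Myh10, which encodes non-muscle myosin IIB, was at -0.01 ± 0.05 (adjusted p = 0.87). Myh15, a myosin heavy chain of low expression, had 1 read in all in the EtOH control, none in the KO and 90 in the 4OHT control, a ratio of 97.5 (95% interval from counting error 17.1 to 3894). Only 4OHT control libraries were over 1 CPM, so Myh15 passed the low-count filter through them alone. Its direction was thus fixed by the filter, and the ratio is a description.

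Col6a3, a collagen VI chain, rose from 0.0521, 0.342 and 0.463 CPM to 2.13, 2.75 and 2.80 CPM, with ratio 8.84 (counting interval 5.47 to 15.1). Like Myh15, the genes Col6a3, Dcdc2a and Xkr7 passed the low-count filter only through the 4OHT control. Gpa33, a cell-surface immunoglobulin-family protein, had 16.1, 16.6 and 18.6 CPM in the EtOH control and 44.7, 57.6 and 54.3 CPM in the 4OHT control (1.61 ± 0.07, adjusted p = 3.1e-12), with the arms well apart. Tal1, the haematopoietic transcription factor, was at 1.75 ± 0.25, the homeobox gene Dmbx1 at 1.66 ± 0.22, the oocyte chaperone gene Npm2 at 1.63 ± 0.28 and Fv1, a retroviral restriction factor, at 1.56 ± 0.27. Also among the 15 were Dcdc2a (2.84), Xkr7 (1.96), Mlph (1.82), Ccdc141 (1.73) and Aass (1.56), the last an enzyme of lysine breakdown. All 30 of these leading genes kept their call with each replicate left out in turn. They were chosen as the largest changes with the same sign in every replicate, so this follows largely from the choice and adds no support. Without the replicate block 12 of the 15 higher and 12 of the 15 lower genes passed. These counts include the genes, named above, that passed the low-count filter only through the arm or line where they were higher. The filter set the direction of those genes, so their place in the counts is a description.

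**Figure D3:**
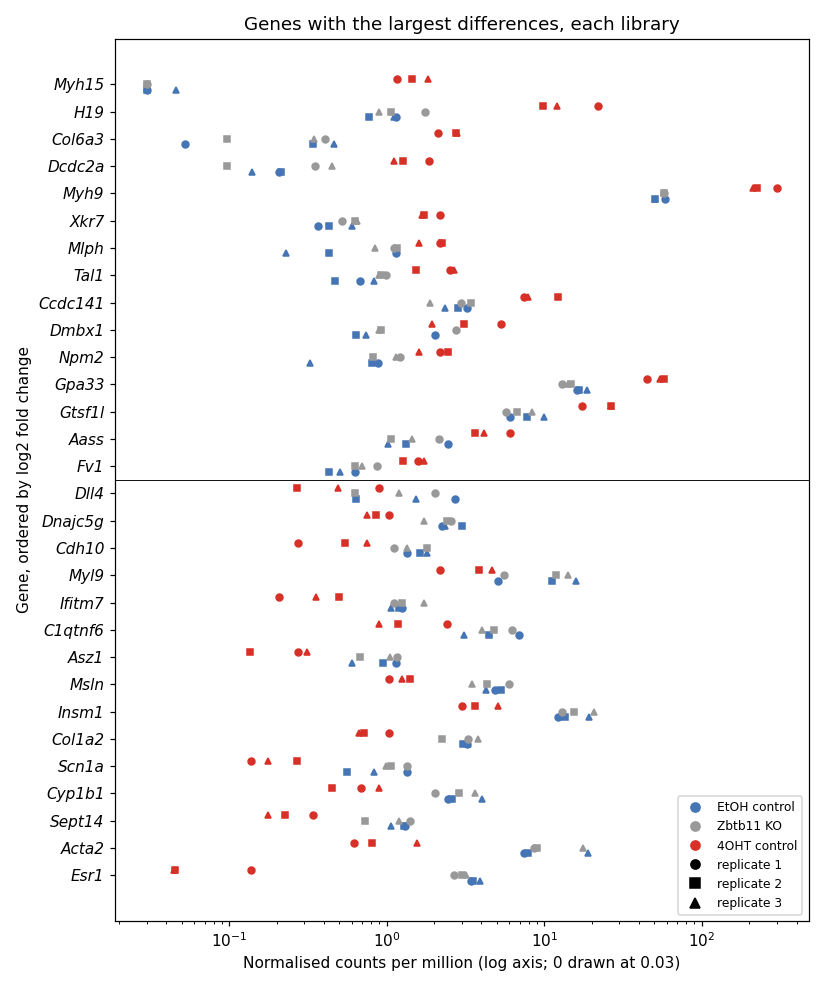
Normalised CPM (x axis, log scale, 0 drawn at 0.03) of the 15 genes most increased and the 15 most decreased in the 4OHT control, outside the set-aside regions. Each point is 1 library, with colour for the arm and shape for the replicate: the KO points, from the engineered line, lie with the EtOH control, for example for Esr1 and Myh9, where all 6 stand apart from the 4OHT control.

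Genes past 1.5-fold also in the fit without the block included several outside those 30, which are named here after their values were seen. Mybl2, a cell-cycle transcription factor, was at 277, 288 and 274 CPM in the EtOH control and 745, 742 and 598 CPM in the 4OHT control (1.31 ± 0.06, adjusted p = 2.2e-12). Tceb2, which encodes elongin B, was at 37.3, 32.6 and 40.5 CPM and 95.5, 95.3 and 99.5 CPM (1.40 ± 0.06). Chfr, a mitotic checkpoint ubiquitin ligase, was at 1.11 ± 0.06, the Krüppel-like repressor Klf3 at 1.19 ± 0.07 and the chromatin architectural factor Hmga2 at 1.43 ± 0.12. For these 5 genes the arms did not overlap, which follows largely from how they were chosen and adds no support. Of all 12797 kept genes, 1250 had non-overlapping arms with the 4OHT control higher and 1243 with it lower.

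Genes that respond to estrogen ligands and foreign compounds were examined because only 1 of the 2 controls received 4OHT. Of 9 estrogen receptors and responsive genes tested, 6 had higher and 1 lower levels in the 4OHT control (0 and 1 without the replicate block). Over all kept genes 15.3% were higher and 15.9% lower. The lower member was Esr1, and whether its reads came from the transgene was not tested. Of the 6 higher members, 3 kept their call with each replicate left out in turn. The 6 included Igfbp4, an IGF-binding protein, at 16.6, 8.94 and 9.76 CPM in the EtOH control and 41.2, 12.9 and 12.9 CPM in the 4OHT control (0.80 ± 0.15, adjusted p = 2.6e-04), with replicate 1 highest in both arms and the arms overlapping. Without replicate 1 it was at 0.47. Greb1, an estrogen receptor coactivator, was at 0.49 ± 0.14 (adjusted p = 0.01) and lost its call in 1 of the 3 fits with a replicate left out and by DESeq2 (adjusted p = 0.052). In the KO, which received the same 4OHT, Igfbp4 was at 0.15 ± 0.15 and Greb1 at 0.06 ± 0.15 against the EtOH control, and neither was called. Of 13 genes of the xenobiotic and oxidative stress response, 1 had higher and 5 lower levels in the 4OHT control (0 and 1 without the replicate block). The lower genes were led by Cyp1b1 and included Gstp1, a glutathione transferase (-0.41 ± 0.07, adjusted p = 2.1e-04), while the aryl hydrocarbon receptor gene Ahr was at -0.07 ± 0.10.

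Tamoxifen compounds are also known to act on sterol enzymes. Of 20 genes of cholesterol synthesis and uptake, 1 had higher and 0 lower levels in the 4OHT control (0 and 0 without the replicate block). The called gene was Mvk, mevalonate kinase (0.31 ± 0.09, adjusted p = 0.014), whose adjusted p with replicates 1 to 3 left out in turn was 0.054, 0.19 and 0.0069. Of 10 genes of sterol efflux and storage, 5 had higher and 2 lower levels in the 4OHT control (1 and 0 without the replicate block). Abca1, the cholesterol efflux pump, was at 23.1, 26.2 and 26.3 CPM in the EtOH control and 40.6, 38.3 and 31.9 CPM in the 4OHT control (0.54 ± 0.09, adjusted p = 6.7e-05), and Soat1, which esterifies cholesterol, at -0.73 ± 0.07 (adjusted p = 1.5e-07).

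Imprinted genes differed in both directions, and no difference between the maternally and the paternally expressed list was tested. Of 17 maternally expressed genes tested, 9 had higher and 4 lower levels in the 4OHT control (5 and 0 without the replicate block), with a median of 0.14. Of 22 paternally expressed genes, 0 had higher and 9 lower levels in the 4OHT control (0 and 5 without the replicate block), with a median of -0.34. The KO medians of the 2 lists were 0.06 and 0.02. Allelic expression and DNA methylation were not measured here.

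The promoter of H19, which had the largest difference of the imprinted genes, is shown with CG dinucleotides, at which DNA can be methylated, in capitals. It is the 250 bases before the first annotated base of the gene in GENCODE vM1, chr7:149764049-149764298, read 5′ to 3′ on the gene's minus strand from the mm9 genome.
H19: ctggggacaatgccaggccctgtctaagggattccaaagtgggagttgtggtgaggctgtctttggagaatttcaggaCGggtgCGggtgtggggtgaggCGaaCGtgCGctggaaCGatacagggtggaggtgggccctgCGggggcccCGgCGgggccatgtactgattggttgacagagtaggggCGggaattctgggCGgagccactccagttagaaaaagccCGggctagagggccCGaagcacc
This window held 13 CG dinucleotides, and whether imprinting is set within it was not tested.

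H19, a maternally expressed long noncoding RNA, was at 1.15, 0.770 and 1.11 CPM in the EtOH control, 1.75, 1.07 and 0.894 CPM in the KO and 21.8, 9.80 and 12.0 CPM in the 4OHT control (3.80 ± 0.17, adjusted p = 2.1e-12), with the wild-type line above the engineered line in each library. Its neighbour Igf2, a paternally expressed growth factor gene, went the other way, from 11.9, 8.09 and 12.4 CPM to 4.74, 4.43 and 5.73 CPM (-1.10 ± 0.12, adjusted p = 9.6e-07). Cdkn1c, a cyclin-dependent kinase inhibitor, rose from 14.8, 10.3 and 13.2 CPM to 29.4, 19.8 and 29.7 CPM (1.04 ± 0.08, adjusted p = 9.0e-09). Grb10, an adaptor that restrains insulin and IGF signalling, was at 0.97 ± 0.06, Phlda2, a restraint on placental growth, at 0.75 ± 0.07, and Gnas, the stimulatory G protein alpha subunit, at 0.56 ± 0.07, with adjusted p of 7.9e-10, 1.2e-07 and 4.2e-06.

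Among paternally expressed genes, Peg10, derived from a retrotransposon, fell from 357, 366 and 418 CPM to 139, 165 and 192 CPM (-1.20 ± 0.06, adjusted p = 1.2e-11). Sgce, a sarcoglycan gene that starts beside it, had 11.6, 4.88 and 6.48 CPM in the EtOH control and 4.74, 2.12 and 2.09 CPM in the 4OHT control (-1.37 ± 0.14, adjusted p = 3.5e-07, 0.15 without the block). Plagl1, a zinc-finger factor, was at -0.85 ± 0.15, Nnat, a membrane proteolipid gene, at -0.63 ± 0.13 and Impact, a regulator of the Gcn2 kinase, at -0.48 ± 0.06. Of the Dlk1-Dio3 cluster, the noncoding and maternally expressed Meg3, Rian and Mirg were at -0.52 ± 0.08, -0.69 ± 0.09 and -0.67 ± 0.11, and the paternally expressed Rtl1 at -0.69 ± 0.11. None of these 4 passed without the block (adjusted p 0.15 for Meg3). The paternally expressed Dlk1 (-0.27 ± 0.14, adjusted p = 0.14) and Dio3 (-0.64 ± 0.24, adjusted p = 0.0503) of the same cluster were not called. Peg3 (-0.01 ± 0.05), Mest (-0.05 ± 0.05) and Snrpn (0.05 ± 0.06) were not called.

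**Figure D4:**
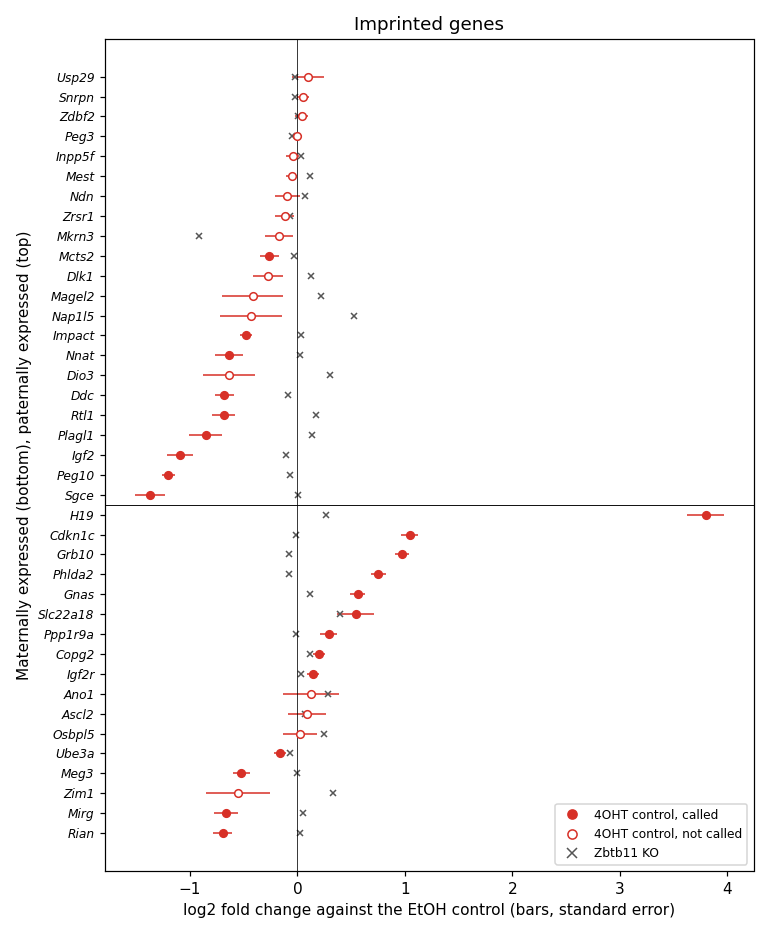
Log2 fold change against the EtOH control (x axis) of each tested imprinted gene (y axis), for the 4OHT control (red, with standard error, filled where called) and the Zbtb11 KO (crosses). H19 stands far to the right at 3.80, the filled paternally expressed genes all lie left of 0 down to Sgce at -1.37, and the KO crosses of called genes lie within 0.40 of 0.

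Genes for enzymes of DNA methylation differed by small amounts. Of 16 tested, 3 had higher and 6 lower levels in the 4OHT control (0 and 1 without the replicate block). Uhrf1, which brings Dnmt1 to replicated DNA, had 452, 462 and 449 CPM in the EtOH control and 367, 374 and 372 CPM in the 4OHT control (-0.29 ± 0.05, adjusted p = 1.7e-04). Dnmt3l, a cofactor of de novo methylation, was at -0.39 ± 0.06 (adjusted p = 9.2e-05) and Dnmt3b, a de novo methyltransferase, at 0.03 ± 0.06 (95% interval -0.09 to 0.15, adjusted p = 0.69).

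Both arms expressed the core ESC genes. Pou5f1 had 606, 755 and 719 CPM in the EtOH control and 766, 779 and 840.5 CPM in the 4OHT control (0.20 ± 0.06, adjusted p = 0.012, and 0.12, 0.014 and 0.071 with replicates 1 to 3 left out in turn). Sox2 had 501, 519.7 and 532 CPM and 520.1, 532 and 505 CPM (0.00 ± 0.05, 95% interval -0.11 to 0.12). Of 10 identity genes tested, 3 had higher and 1 lower levels in the 4OHT control (0 and 0 without the replicate block). Dppa5a, an RNA-binding protein of pluripotent cells, was at 0.65 ± 0.06, Fgf4, the ESC growth factor, at 0.45 ± 0.05 and Utf1, a chromatin-bound ESC factor, at -0.44 ± 0.05, and each kept its call with any replicate left out.

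Naive pluripotency genes moved in both directions. Of 14 tested, 5 had higher and 3 lower levels in the 4OHT control (2 and 0 without the replicate block). Spp1, osteopontin, rose from 101, 88.5 and 87.8 CPM to 233, 229 and 239.7 CPM (1.34 ± 0.06, adjusted p = 1.1e-12), and Jam2, a junctional adhesion molecule, from 122, 129 and 124 CPM to 230.5, 263 and 259 CPM (1.01 ± 0.06, adjusted p = 6.4e-11). Klf4, a LIF-induced naive factor, was at 0.44 ± 0.06 (adjusted p = 2.3e-05), Prdm14, which restrains FGF signalling, at 0.35 ± 0.07 and the nuclear receptor Nr5a2 at -0.36 ± 0.06. Esrrb, another nuclear receptor of the naive network, was at 0.10 ± 0.05 (95% interval -0.00 to 0.21, adjusted p = 0.13). Of 16 genes of the formative and primed states, 5 had higher and 4 lower levels in the 4OHT control (0 and 0 without the replicate block), among them Otx2, a driver of exit from the naive state (0.55 ± 0.10, adjusted p = 2.6e-04).

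Markers of other cell types were used to check the labelled cell type. Of 13 primitive endoderm markers, 0 had higher and 5 lower levels in the 4OHT control (0 and 1 without the replicate block). Lama1, a laminin chain, fell within every pair, from 280.4, 274 and 254 CPM to 135, 136 and 139 CPM (-0.98 ± 0.05, adjusted p = 2.9e-11), and the matrix protein gene Sparc was at -0.47 ± 0.05. The 13 summed to 1315 to 1400 CPM in the EtOH control and 1053 to 1102 CPM in the 4OHT control. The lineage factors Gata4 and Gata6 were at 0.38 ± 0.17 and 0.23 ± 0.23 and not called. Of 8 fibroblast markers, 3 had higher and 3 lower levels in the 4OHT control (0 and 3 without the replicate block): Acta2, Col1a2 and Tagln were lower, whereas Thy1 was at 0.61 ± 0.12 and Col1a1 at -0.23 ± 0.13. The 8 summed to 45.9 to 62.5 CPM in the EtOH control and 38.5 to 58.3 CPM in the 4OHT control, and 6 others of the list did not pass the filter on low counts. Of 8 trophoblast markers, 3 had higher and 0 lower levels in the 4OHT control (1 and 0 without the replicate block). Of 6 neural markers, 1 had higher and 1 lower levels in the 4OHT control (1 and 1 without the replicate block), Cdh2 (N-cadherin) at -1.09 ± 0.11 and Stmn2, a microtubule regulator, at 0.48 ± 0.05. Of 7 mesoderm and endoderm markers, 1 had higher and 0 lower levels in the 4OHT control (0 and 0 without the replicate block), and of 8 markers of 2-cell-like cells, 2 had higher and 0 lower levels in the 4OHT control (0 and 0 without the replicate block). A change in the share of such cells and a change in RNA per cell cannot be told apart in bulk libraries, and their part in the results above was not tested.

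Signalling outputs downstream of LIF and FGF, which hold ESCs between self-renewal and exit, split rather than moving together. Of 11 LIF-STAT3 targets, 4 had higher and 5 lower levels in the 4OHT control (1 and 2 without the replicate block). Socs3, the feedback inhibitor of the pathway, fell from 289, 279.8 and 284 CPM to 229, 176 and 201 CPM (-0.50 ± 0.06, adjusted p = 1.4e-06), and Sgk1, a serum-induced kinase, from 254, 297 and 246 CPM to 132, 177 and 175 CPM (-0.72 ± 0.07). In contrast the kinase gene Pim3 was at 0.56 ± 0.05, and Stat3 itself at 0.02 ± 0.05.

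Of 14 FGF-ERK feedback and early response genes, 3 had higher and 5 lower levels in the 4OHT control (0 and 0 without the replicate block). The related ETS factors Etv4 and Etv5 went opposite ways. Etv4 had 63.8, 123 and 130.5 CPM in the EtOH control and 21.6, 56.9 and 60.6 CPM in the 4OHT control (-1.21 ± 0.08, adjusted p = 8.8e-10), and Etv5 had 192, 267 and 283 CPM and 295, 435 and 469 CPM (0.68 ± 0.05, adjusted p = 6.0e-09). For both the arms did not overlap, yet the fit without the block gave adjusted p of 0.17 and 0.11. The pathway inhibitors Spry4 and Spred1 were at -0.50 ± 0.11 and -0.49 ± 0.07, with Spry4 at -0.27 without replicate 1 and at an adjusted p of 0.065 by DESeq2, and Dusp6, the ERK phosphatase, was at -0.15 ± 0.08 and not called.

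Immediate early genes, transcribed within minutes of a stimulus, were collected into a list after the values were seen. Of 18 tested, 7 had higher and 4 lower levels in the 4OHT control (1 and 0 without the replicate block). Fos had 59.4, 86.4 and 37.1 CPM in the EtOH control and 139, 160.4 and 59.9 CPM in the 4OHT control (0.94 ± 0.07), Jun 21.0, 15.2 and 10.8 CPM and 66.1, 25.96 and 18.8 CPM (1.13 ± 0.15), and the small GTPase gene Rhob 20.7, 17.7 and 15.3 CPM and 89.9, 34.9 and 30.8 CPM (1.41 ± 0.15). In the 4OHT control, replicate 1 was the highest for Jun and Rhob. Fosb was at 1.11 ± 0.10 and Atf3 at 0.94 ± 0.12, whereas Egr1 was at 0.08 ± 0.11 and Myc, which falls in the same list, at -0.44 ± 0.09.

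In the Wnt pathway, ligands, receptors and targets did not share a direction. Of 10 target genes, 2 had higher and 1 lower levels in the 4OHT control (1 and 0 without the replicate block). Axin2, the feedback scaffold, rose from 16.1, 17.5 and 19.9 CPM to 26.8, 36.6 and 33.0 CPM (0.85 ± 0.08, adjusted p = 1.0e-07), and Notum, which inactivates Wnt proteins, was at 0.78 ± 0.11. Of 28 ligands, receptors and polarity genes in a list made after the values were seen, 6 had higher and 5 lower levels in the 4OHT control (1 and 2 without the replicate block). The ligand Wnt5a had 8.29, 3.98 and 6.80 CPM in the EtOH control and 1.37, 2.39 and 2.31 CPM in the 4OHT control (-1.53 ± 0.22, adjusted p = 2.3e-05), and Wnt7b was at -1.35 ± 0.13. The related receptors of Wnt5a went opposite ways, with Ror1 at -1.52 ± 0.18 (adjusted p = 2.2e-06) and Ror2 at 0.95 ± 0.11 (adjusted p = 2.6e-06).

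The Notch list was also made after the values were seen, and of 26 genes tested, 1 had higher and 9 lower levels in the 4OHT control (1 and 2 without the replicate block). The ligands Dll1, Dll4 and Dll3 were at -1.13 ± 0.18, -1.54 ± 0.28 and -0.49 ± 0.13. Dll4, counted among the 9, passed the low-count filter only through the engineered line. It had 52, 15 and 33 reads in the EtOH control and 13, 6 and 11 in the 4OHT control. With replicates 1 to 3 left out in turn, the adjusted p of Dll3 was 0.0037, 0.059 and 0.094. Rbpj, the DNA-binding effector, was at -0.43 ± 0.07, and the coactivator Maml2 fell from 7.51, 7.10 and 8.33 CPM to 2.61, 3.48 and 3.55 CPM (-1.22 ± 0.14, adjusted p = 1.7e-06). The receptor Notch4 was the exception, at 12.5, 14.5 and 12.8 CPM in the EtOH control, 13.9, 13.5 and 13.1 CPM in the KO and 37.8, 39.6 and 38.5 CPM in the 4OHT control (1.54 ± 0.08, adjusted p = 8.5e-12). The target gene Hes1 was at -0.06 ± 0.08 and not called, and the other receptors Notch1, Notch2 and Notch3 were at -0.14 ± 0.06, 0.01 ± 0.06 and 0.14 ± 0.06. Of 18 BMP and TGF-beta targets, 2 had higher and 1 lower levels in the 4OHT control (0 and 0 without the replicate block).

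Genes of antigen presentation and innate defence had both higher and lower levels, and no difference between the lists was tested. Of 14 class I genes and their peptide-loading partners, 8 had higher and 1 lower levels in the 4OHT control (2 and 0 without the replicate block), with a median of 0.67. H2-K1, a classical class I heavy chain, rose from 25.5, 17.0 and 17.0 CPM to 50.5, 36.7 and 33.0 CPM (1.01 ± 0.09, adjusted p = 7.1e-08), and H2-D1 was at 0.85 ± 0.09. H2-Q6 and H2-Q7, at 1.30 ± 0.21 and 1.26 ± 0.16, are near-identical copies between which the counting may have split reads, so their separate values are uncertain. The shared light chain B2m was at 0.04 ± 0.10. Of 10 genes for interferon-inducible GTPases and the sensor Zbp1 tested, 0 had higher and 9 lower levels in the 4OHT control (0 and 4 without the replicate block), with a median of -0.84. Gbp2 fell from 16.5, 18.0 and 16.9 CPM to 9.88, 8.81 and 7.73 CPM (-0.98 ± 0.10, adjusted p = 2.0e-07), and Irgm2 was at -1.28 ± 0.15. Both lists were made after the values were seen. In the broader list of interferon and antigen presentation genes, of 18 tested, 4 had higher and 6 lower levels in the 4OHT control (2 and 0 without the replicate block), with a median of -0.04. Its lower genes were led by Ddx58 (-0.50, adjusted p = 9.3e-04) and Irf9 (-0.47, adjusted p = 0.0020), neither called without the block. Ddx58 kept its call with each replicate left out in turn, and Irf9 lost it without replicate 2. The interferon-induced Oas1a was at 0.62 (adjusted p = 5.2e-04) and the peptide-loading partner Tapbp at -0.17 (adjusted p = 0.038). Neither of these was called without the block, and Tapbp lost its call whichever replicate was left out.

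Germline genes, usually methylated and silent in somatic cells, also split. Of 23 tested, 5 had higher and 4 lower levels in the 4OHT control (1 and 1 without the replicate block). Mael, a piRNA pathway protein, was at 12.8, 9.28 and 10.3 CPM in the EtOH control and 26.9, 16.6 and 17.6 CPM in the 4OHT control (0.90 ± 0.09, adjusted p = 4.6e-07), Stra8, a meiotic entry gene, at 0.72 ± 0.10 and Tex14, a protein of germ cell bridges, at -0.44 ± 0.05. Within the piRNA pathway, a list made after the values were seen, of 17 tested 4 had higher and 4 lower levels in the 4OHT control (1 and 3 without the replicate block). Beside Piwil4, Tdrd12, a Tudor protein, fell from 81.5, 78.6 and 83.8 CPM to 43.9, 42.8 and 50.9 CPM (-0.83 ± 0.06, adjusted p = 1.8e-09), and Asz1, a mitochondrial partner, was at -1.86 ± 0.40. Gtsf1l, a relative of the Piwi cofactor Gtsf1, rose from 6.10, 7.79 and 9.95 CPM to 17.4, 26.7 and 26.4 CPM (1.57 ± 0.10, adjusted p = 4.3e-10).

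The lists of stress and metabolism genes stand beside a share of 31.2% called over all kept genes. Of 21 p53 targets, 3 had higher and 8 lower levels in the 4OHT control (0 and 0 without the replicate block), with a median of -0.16. Sesn2, a stress-induced mTORC1 inhibitor, was at -0.46 ± 0.06 and Ccng1, cyclin G1, at -0.31 ± 0.05, whereas Sesn1 was at 0.49 ± 0.10 and Cdkn1a, the p21 cell-cycle inhibitor, at 0.12 ± 0.09 (adjusted p = 0.37). Of 22 genes of the integrated stress response, 3 had higher and 7 lower levels in the 4OHT control (0 and 0 without the replicate block), with Asns, asparagine synthetase, at -0.26 ± 0.05. Of 20 glycolysis and hypoxia genes, 4 had higher and 1 lower levels in the 4OHT control (0 and 0 without the replicate block). Pfkl, a phosphofructokinase subunit gene, had 276, 184 and 184 CPM in the EtOH control and 474, 218 and 271 CPM in the 4OHT control (0.53 ± 0.07), with overlap between the arms. Of 23 matrix and cytoskeleton genes, 4 had higher and 9 lower levels in the 4OHT control (1 and 2 without the replicate block), with Cnn2, a calponin, at -0.71 ± 0.08, Vim, vimentin, at -0.55 ± 0.06 and Itga5, a fibronectin receptor chain, at 0.44 ± 0.06.

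No member was called among 3 Hox genes, 2 clustered protocadherins and 5 Zscan4 genes outside the set-aside regions. At the edited loci, Zbtb11 has no row under its own symbol and is not analysed here. Rpl24, a ribosomal protein gene whose model in this annotation includes a Zbtb11 transcript, was at 0.01 ± 0.05 (adjusted p = 0.9). Nearby Senp7, a SUMO protease gene, was at 3.23, 2.31 and 2.78 CPM in the EtOH control and 4.19, 4.74 and 4.26 CPM in the 4OHT control (0.69 ± 0.17, adjusted p = 0.0043), and Pcnp was at -0.17 ± 0.06. With replicates 1 to 3 left out in turn, the adjusted p was 0.004, 0.12 and 0.016 for Senp7 and 0.043, 0.16 and 0.14 for Pcnp. Next to Rosa26, Thumpd3 (-0.77 ± 0.05) and Setd5 (-0.51 ± 0.05) lie in the set-aside stretch of chromosome 6.

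**Figure D5:**
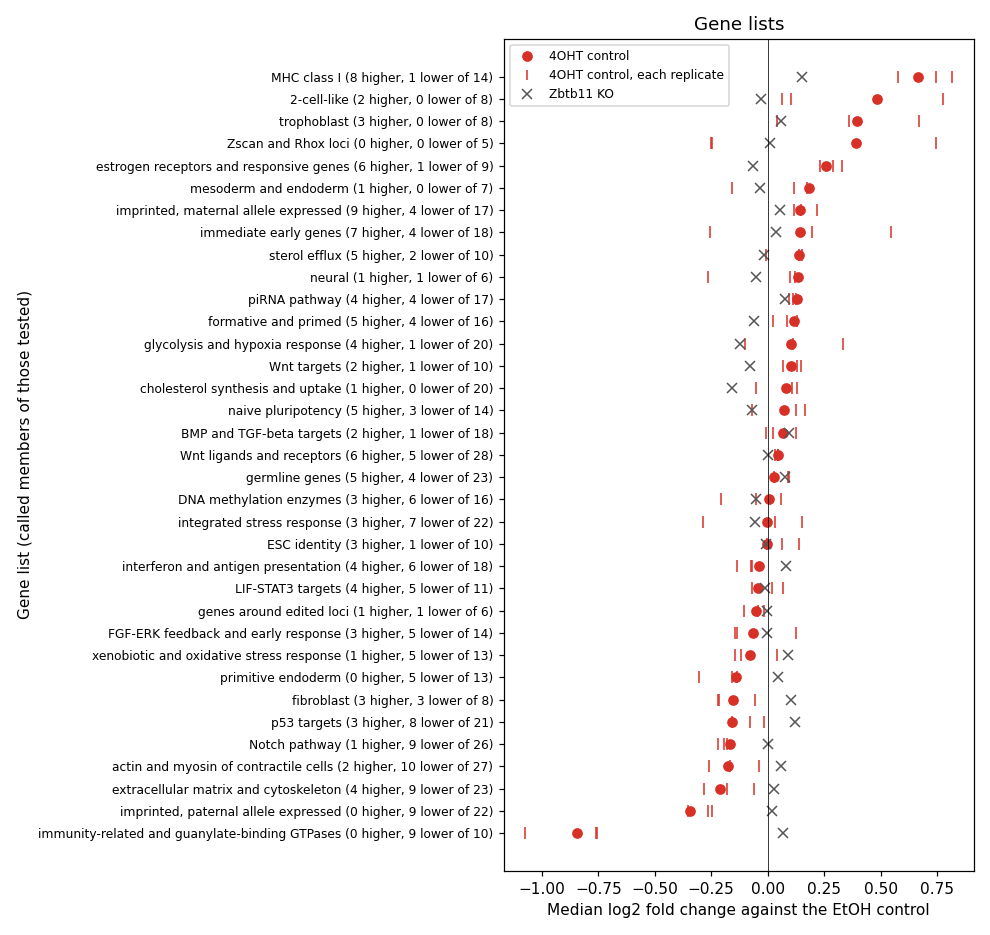
Median log2 fold change against the EtOH control (x axis) of each gene list with at least 5 tested members (y axis), as filled points for the 4OHT control, ticks for each of its replicates and crosses for the Zbtb11 KO. MHC class I lies furthest right (0.67) and the interferon-inducible GTPases furthest left (-0.84). Both lists were made after the values were seen, so their place at the ends adds no support. The broader list of interferon and antigen presentation lies at -0.04, and most lists lie near the median of all kept genes, -0.01.

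The promoters of the genes that changed most held fewer CG dinucleotides in the median than those of all kept genes, a difference that was not tested. In the 300 bases from 250 before to 50 after the annotated start, the median number of CG dinucleotides was 19 over 12793 kept genes. It was 12 over the 111 genes more than 1.5-fold higher and 10 over the 82 lower. Windows with fewer than 10 CG made up 24.4% of all kept genes, 43.2% of the higher and 46.3% of the lower. The median level over both controls was 20.2 CPM for all kept genes, 9.25 CPM for the higher and 7.38 CPM for the lower, so these genes were also expressed at lower levels, and the part of level in the difference was not tested.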

How the data were processed

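The authors sequenced rRNA-depleted, directional libraries as 75-base read pairs, trimmed and filtered them, aligned them to mm9 with STAR in 2 passes and counted reads per gene with HTSeq. Versions and the strand setting are not given in the sources used here. The deposited values are raw counts for 37310 genes, all of which matched a gene of GENCODE vM1. Reads that HTSeq assigned to no gene (25.3% to 31.6% in the control libraries) or to several (0.790% to 0.905%) were left out, as were ChIP-seq files. The rows of the 9 RNA-seq libraries were read as deposited.

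Genes above 1 CPM in at least 3 of 9 libraries were fitted with edgeR 4.0.16 (R 4.3.3): TMM normalisation, arm and replicate number as terms, the quasi-likelihood F test, and glmTreat for changes over 1.5-fold, both adjusted by Benjamini-Hochberg over all 14346 genes at 0.05. All tests are two-sided. CPM values are TMM-normalised, ± is the standard error of a log2 fold change (n = 3 per arm), and fold change intervals are 95%. Intervals of read ratios cover counting error only (Clopper-Pearson on the share of reads). Replicate numbers were taken to pair the libraries: over 14346 genes, deviations from the arm means correlated at 0.81, 0.43 and 0.68 for EtOH and 4OHT control replicates 1, 2 and 3. Replicates 2 and 3 were less distinct, since EtOH 2 correlated at 0.53 with 4OHT 3 and EtOH 3 at 0.35 with 4OHT 2, while replicate 1 against either of the others gave -0.75 to -0.48. The paper found 1 replicate distant from the others in all arms and proposes that technical variability may underlie this. Its final gene list leaves that replicate out, whereas all 3 are kept here. Genes were placed by their GENCODE vM1 start in mm9.

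Genes named are the 15 largest changes in each direction that passed the 1.5-fold test with the same sign in all 3 replicates, without predicted genes, plus up to 4 called members per list and direction, defining genes, and genes at the edited loci. Other genes, among them Piwil4, Dppa3 and the members of lists made after the values were seen, fall outside this rule and were chosen after their values were seen. The comparison, the gene lists and this rule were chosen with earlier results of these data known, so list counts are descriptions.

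On data simulated for this comparison (14341 genes, 200 changed), the fit recovered 82% of 1.3-fold, 94% of 1.5-fold and of 2-fold and 100% of 4-fold changes, and called 8 of 14141 unchanged genes. The simulated arms shared their replicate profile by number, the spread was that of the blocked fit, and changed genes had to exceed a minimum count. The simulation thus assumes the pairing and cannot show the rate of false calls where the pairing fails. DESeq2 1.42.0 and the other alternatives are described in the closing section. Some genes and promoter sequences are not reported here.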

Additional observations from a re-analysis of the deposited data

How the results depend on the processing

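Of the alternatives tried, leaving out the replicate block changed the counts most. Without the replicate block 212 genes passed with a higher and 178 with a lower level in the 4OHT control, and 15 and 10 passed the 1.5-fold test; all of these were among the genes called with it. That fit had 2003 genes at an unadjusted p under 0.05 against 5235 with the block. DESeq2 with the block called 42 genes higher and 38 lower past 1.5-fold. An adjusted p under 0.01 left 1211 higher and 1249 lower. A filter of more than 5 CPM in 3 or more libraries left 73 genes past 1.5-fold higher, with fewer genes tested, and with no region set aside 126 were past 1.5-fold lower. With 1 replicate left out, the counts ranged from 1011 to 1603 higher and from 1018 to 1628 lower, and past 1.5-fold from 63 to 109 higher and from 55 to 75 lower. The other counts, among them those with library sizes without TMM, with robust empirical Bayes, without a low-count filter and with only the 6 control libraries, were within 1.5 times the reported ones. The chromosome medians moved by less than their spread between replicates in the alternatives run for them, library sizes without TMM and leaving out each replicate.

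Of the 166 genes that the naming rule covers, 162 kept their sign in every alternative. The exceptions had adjusted p-values above 0.05 in every alternative. Sox2 was at -0.000272 with only the control libraries and -0.00262 without the low-count filter. With 1 replicate left out Sox2 ranged from -0.0179 to 0.0440, Cdkn1a from -0.0528 to 0.230, Rpl24 from -0.0113 to 0.0240 and Dnmt3b from -0.0519 to 0.111. Of the 166, 108 lost their call without the block, 26 under DESeq2 and 22, 36 and 22 without replicates 1, 2 and 3. The causes were not tested. With 3 libraries per arm, genes at a few CPM have wide intervals, and 1 line per arm limits every difference to these lines.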
